A study of Callorhinchus milii with 12 samples.

Results

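Windows of 2 kb in which about 50% of the CG calls were methylated, although the 50 kb around them was highly methylated, were examined in the liver of the elephant shark, Callorhinchus milii. The scaffolds of assembly 6.1.3 were divided from position 1 into adjoining windows. A window was taken when it held at least 50 CG calls in each of the deep-sequenced livers, when its level (the share of calls that are methylated) lay between 40% and 60% in each, and when the 50 kb window that contains it had a level of 75% or more with the calls of both livers added. The members were thus chosen by their measured levels. Of the 224524 windows with at least 50 calls in each liver, 17434 (7.76%) lay between 40% and 60% in both, and 1590 of these met the whole rule, and are called embedded windows here. They make up 1.6% of the 99465 windows that lie in 50 kb windows at 75% or more. A further 15844 windows had the same level of 40% to 60% in both livers but lay in 50 kb windows under 75%, which is 12.7% of the windows there. These open windows serve as the comparison at equal level, and the 22168 other windows of the 1304 50 kb windows that hold an embedded window serve as the comparison at equal place.

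The study profiled DNA methylation in adult animals obtained from commercial fishing, without any treatment, by whole-genome bisulfite sequencing of 12 libraries. The results here rest on 1 female liver and 1 male liver that were sequenced deeply, and each is DNA of a whole piece of tissue in which cell types are not separated. The other 10 libraries, from further livers, pancreas and spleen, were sequenced at low coverage. Their deposited reports give totals without positions and were not used here. With 1 deep library per sex, no test across animals is possible, all comparisons are descriptions of these libraries, and intervals cover counting error only. The levels selected the windows, so that the level itself is no finding. How the calls are arranged over sites and reads within that level was not itself part of the rule. The limit on the surroundings can still bear on that arrangement, and so on its contrasts with the open windows. How far it does was not tested.

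Methylation of CG dinucleotides is copied after DNA replication by the maintenance methyltransferase DNMT1, which acts on the newly made strand opposite a methylated CG. A CG site in 1 DNA molecule is either methylated or not, and an intermediate level of a window is therefore always an average. It can arise when some sites of the window are methylated in nearly all molecules and others in nearly none, as at the border of a CpG island. It can also arise when whole molecules differ, as between the parental copies of an imprinted gene in mammals or between cell types, or when methylated and unmethylated sites are scattered along every molecule. Bisulfite reads keep the calls of 1 molecule together, so that these arrangements can be described separately.

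The female library held 30080951 CG calls at a global level of 69.0%, and the male library 38128530 calls at 71.6%. Inside the embedded windows lay 172547 female and 218077 male calls. A window had a median of 92 calls in the female (5 to 95 percentile 54 to 228) and 115 in the male (58 to 291). The reads of both libraries carry the same instrument, run and flow cell in their names.

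Embedded windows lay scattered over most scaffolds. Of the 330 scaffolds, 272 held at least 1. Among the 64 scaffolds with at least 500 windows in highly methylated 50 kb windows, the share of embedded windows ranged from 0.407% to 3.11%, with a median of 1.46%. Most lay alone. Of the 1304 50 kb windows with an embedded window, 1066 held 1, 196 held 2, 36 held 3 and 6 held 4. The 1590 windows formed 1538 runs, of which 1488 were a single window, 48 were 2 adjoining windows and 2 were 3. Only 21 lay within 10 kb of the end of a scaffold. They became rarer with the level of the surroundings, from 2.36% of the windows where the 50 kb level was 75% to under 80%, through 1.32% at 80% to under 85% and 0.663% at 85% to under 90%, to 1 of 3372 windows at 90% or more. The 50 kb level is part of the rule and includes the window itself, which lowers it, so that this order is in part fixed by construction.

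The dip was narrow. In the window itself the mean level was 51.5% (female) and 52.3% (male), and it had risen to 72.7% and 74.3% in the window before and to 71.7% and 73.4% in the window after. At 20 kb on either side the means were 77.6% and 78.0% in the female and 79.7% on both sides in the male. Around the open windows no such step was seen. Their neighbours had means of 52.5% before and 52.7% after in the female and 56.1% on both sides in the male. The 50 kb level is fixed by the rule and is no independent sign of these surroundings. Most of these neighbours lie in that same 50 kb window. The contrast with the open windows, and the narrowness of the dip, are thus largely set by the rule. Among the 1455 embedded windows whose neighbours both had at least 50 calls, both neighbours were at 75% or more in 33.9%, against 55.1% of the other windows of the same 50 kb windows. In 62 of them (4.26%) a neighbour was under 20%, against 1.00% of those other windows and 3.17% of the open windows. A neighbour under 40% was found for 11.3%, against 2.74% of the other windows nearby and 23.7% of the open windows.

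**Figure D1:**
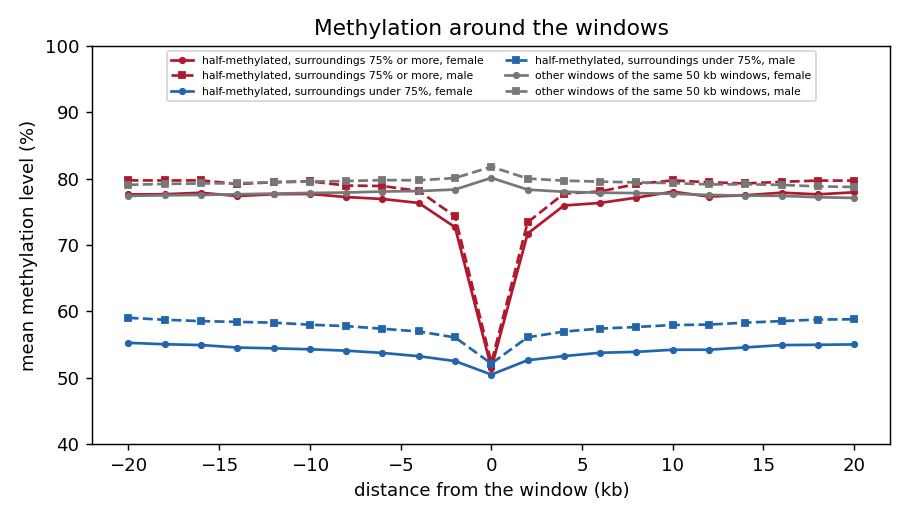
Mean methylation level (%) of 2 kb windows against their distance (kb) from the window, with circles and solid lines for the female and squares and dashed lines for the male liver. Only windows with at least 20 calls in each liver enter the means, and the embedded windows (red, surroundings 75% or more) drop to 51.5% and 52.3% within 2 kb while the open windows (blue) lie in a broad trough. The rule largely sets this contrast.

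The embedded windows differed little from their surroundings in CG content and coverage. They held a median of 42 called CG sites, against 44 in the other windows of the same 50 kb windows, 35 in the open windows and 39 over all windows. Among windows in highly methylated 50 kb windows, the share that was embedded was 1.49% at 1 to 24 sites, 1.57% at 25 to 39, 1.54% at 40 to 59 and 1.83% at 60 or more. The median coverage was 5.04 calls per CG site, against 5.44 in the other windows nearby and 5.28 over all windows. Of the embedded windows, 6 (0.377%) had more than double the median calls per site of all windows, against 0.527% of all windows. Windows of unusually high coverage were therefore not more frequent among them. Female over male calls, on the log2 scale, had a median of -0.30 in the embedded windows and -0.32 over all windows.

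Both animals were close to each other at these windows, which the rule in part imposes. The female minus male level had a mean of -0.821 percentage points with an SD of 6.92 over the windows. Counting noise alone, with calls taken as independent, gives an SD of 7.09. The rule also limits the observed SD, so that its place below 7.09 does not measure likeness of the animals. The female was lower in 55.2% of the embedded windows and in 60.7% of all windows. Over all windows, which the rule does not restrict, the difference was -2.39 points. Its SD there was 8.81, above the 5.96 from counting noise computed in the same way.

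At the limits of the rule the windows ran on without a gap. In all, 88 embedded windows had a level of 40% to under 41% in at least 1 liver, and 55 windows just outside had 39% to under 40%. At the upper limit, 230 windows lay above 59% inside the rule and 220 at up to 61% outside it. The nearest pair at the lower limit were the window from 11344001 to 11346000 of scaffold NW_006890063.1, with 52.9% in the female and exactly 40% in the male, and outside it the window from 5122001 to 5124000 of NW_006890093.1, with 41.5% and 39.9%. At the upper limit they were the window from 1772001 to 1774000 of NW_006890055.1, with 54.7% and exactly 60%, and outside it that from 1880001 to 1882000 of NW_006890083.1, with 59.7% and 60.1%. At the limit of the surroundings they were the window from 1118001 to 1120000 of NW_006890089.1, in a 50 kb window of 75.02%, and outside it that from 612001 to 614000 of NW_006890269.1, in one of 74.99%. At the minimum of calls they were the window from 1754001 to 1756000 of NW_006890055.1, with 50 female and 56 male calls, and outside it that from 3446001 to 3448000 of NW_006890058.1, with 52 and 49.

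Single CG sites within the embedded windows were mostly either low or high. With both livers added, 37577 of their sites had at least 5 calls. Of these, 26.04% were under 20%, 11.7% at 20% to under 40%, 14.2% at 40% to under 60%, 15.3% at 60% to under 80%, and 32.8% at 80% or more. In the open windows the largest share was in the middle instead, with 24.2% of 319230 sites at 40% to under 60%, 14.3% under 20% and 20.9% at 80% or more. In the other windows of the same 50 kb windows, 71.5% of the sites were at 80% or more and 3.61% under 20%. Few calls per site widen all of these distributions, and sites of the embedded and open windows had similar depths, with means of 8.18 and 7.89 calls at sites under 20% and 7.50 and 7.32 at sites of 80% or more.

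**Figure D2:**
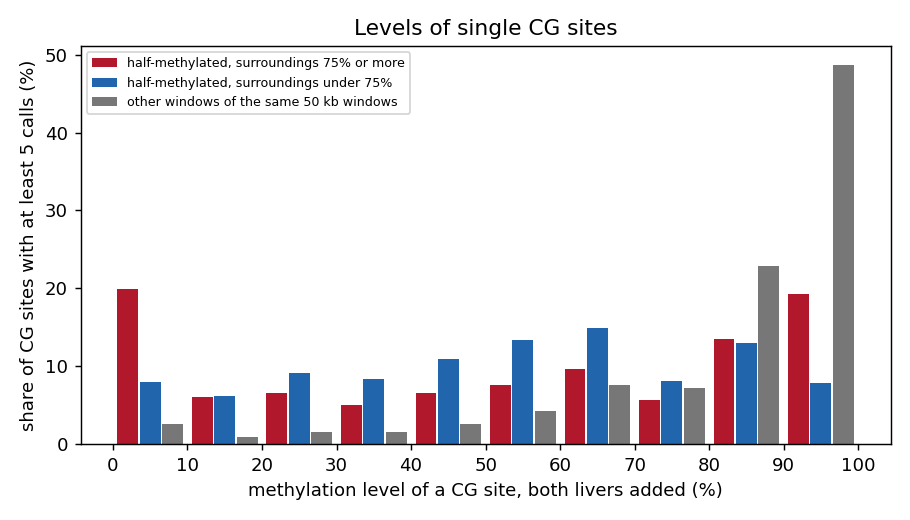
Share (%) of CG sites with at least 5 calls by their methylation level (%) in bins of 10 points, both livers added. Sites of the embedded windows (red) peak at both ends, with 20.0% of them under 10% and 19.3% at 90% or more, whereas sites of the open windows (blue) peak between 50% and 70%.

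A window was called split when at least 20% of its sites lay under 20% and at least 20% at 80% or more, among windows with at least 10 sites of at least 5 calls. Of the 1523 embedded windows with enough sites, 797 were split, or 52.3% (95% Wilson interval 49.8% to 54.8%). The background of split windows was 3.81% over all windows. Of the open windows, which have the same level, 13.8% were split. Their 50 kb windows had a mean level of 56.9%, against 79.4% for the embedded windows, so that the rule may set part of this contrast. In 696 embedded windows (45.7%), at least 50% of the sites lay between 20% and 80%, which was so in 87.5% of the open windows. A window can meet this condition and be split as well.

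Low sites lay in a row in part of the windows. An unmethylated stretch, a row of adjoining sites under 20%, spanned 200 bp or more in 405 embedded windows, or 26.6% of those with enough sites, against a background of 6.55% over all windows and 9.61% of the open windows. It spanned 500 bp or more in 94 embedded windows (6.17%), and its median was 68 bp with 3 sites. From a site under 20% to the nearest called site of any level the median was 9 bp in the embedded windows, close to the 10 bp in the other windows nearby and over all windows, and 20 bp in the open windows.

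Levels were also compared between the first and the last 1 kb of each window. In the 1534 embedded windows with at least 20 calls in each, they differed by a median of 28.3 percentage points, against 11.5 in the open windows and 7.23 in the other windows nearby. The difference was 40 points or more in 516 embedded windows (33.6%), against a background of 3.95% over all windows and 5.54% of the open windows. The first 1 kb was the higher one in 798 of the 1534.

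The site pattern was shared by the female and the male. At the 4955 sites with at least 5 calls in each liver, the deviation of a site from the level of its window was correlated between the animals with Pearson's r at 0.80 and Spearman's rho at 0.80, across sites of the same pair of libraries. In the open windows the r was 0.59 over 41909 sites, and in the other windows nearby 0.51 over 92121 sites, where the sites differ less and counting noise weighs more. Of the sites, 81.7% lay on the same side of their window's level in both animals, against 70.1% in the open windows. The difference between the first and last 1 kb had an r of 0.90 between the animals over 1222 embedded windows, and the higher one was the same in 85.3% of them, against an r of 0.65 and 66.7% in the open windows.

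Reads were then sorted by their calls. A read spans at most 89 bp between its first and last CG call, so that only reads from CG-rich stretches hold 4 or more. At least 4 calls inside an embedded window were held by 16178 female and 20707 male reads, in 1558 of the 1590 windows, with a median of 18 reads per window. In the female, 27.2% of these reads were methylated at every call (95% Wilson interval 26.5% to 27.9%), 30.7% at none (30.0% to 31.4%), and 42.1% were mixed (41.3% to 42.9%). In the male, 28.0% were methylated at every call (27.4% to 28.6%), 30.97% at none (30.3% to 31.6%), and 41.03% were mixed (40.4% to 41.7%). The lanes of each library gave mixed shares of 41.9% and 42.3% in the female and 41.1% and 40.99% in the male.

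The open windows, chosen at the same window level, had far more mixed reads. There, 61.5% of 112857 female and 60.6% of 141460 male reads were mixed, while 21.0% and 22.1% were methylated at every call and 17.5% and 17.3% at none. In the other windows of the same 50 kb windows, 36.9% of the female and 35.0% of the male reads were mixed, and only 5.03% and 4.69% were unmethylated at every call. Reads of this kind had a level of 50.1% in the embedded windows, where the mean window level with both livers added was 51.9%. In the open windows they had 55.8%, above the mean window level of 51.4%. The reads compared were thus not at quite the same level.

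**Figure D3:**
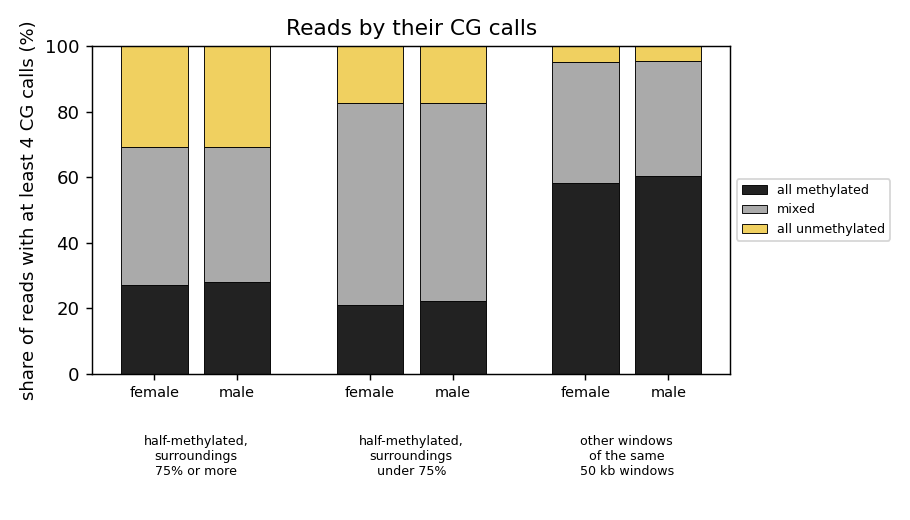
Share (%) of reads with at least 4 CG calls in a window that were methylated at every call (black), mixed (grey) or unmethylated at every call (yellow), by liver. Embedded windows (left) had 42.1% and 41.03% mixed reads, against 61.5% and 60.6% in open windows of the same level (middle).

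Longer rows of calls did not make mixed reads the rule. With both livers added, 39.3% of the reads with exactly 4 calls were mixed, 43.6% with 5, 43.5% with 6 and 46.2% with 7. Among the 4946 reads with 8 or more calls, 39.7% were mixed and 43.8% unmethylated at every call, against 16.5% methylated at every call. Among such reads of the open windows, too, more were unmethylated at every call (29.1%) than methylated at every call (15.5%). The mixed share of the open windows was 57.9% at 4 calls, 67.4% at 7 and 55.4% at 8 or more. Of the mixed reads in embedded windows, 60.8% had a single call that differed from the others, mostly a single unmethylated call (42.5%) rather than a single methylated one (18.3%). This is not particular to them. The share was 56.2% in the open windows (37.9% with a single unmethylated call) and 70.1% in the other windows nearby (63.1%). A read with 1 odd call is close to one of the uniform kinds, and counting it as mixed does not separate it from an evenly mixed read.

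The windows varied widely in this measure. In the 604 embedded windows with at least 10 such reads in each liver, the share of mixed reads had a median of 41.4%, quartiles at 28.0% and 52.8%, and 5 and 95 percentiles at 15.1% and 66.6%. The female and male shares of the same window had an r of 0.63 over these windows. In 3401 open windows with as many reads, the median was 64.3% and the quartiles were 52.8% and 72.2%. The r between the animals was 0.56 in these open windows and 0.53 in 9962 other windows nearby with as many reads.

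Uniform reads alone do not tell whether sites or molecules differ, because a read that lies wholly in an unmethylated stretch is uniform too. Pairs of calls were therefore compared in 3 ways within each liver. Calls at different sites of a window and on different reads agreed in 48.9% of pairs in the embedded windows. The level set by the rule largely fixes this value, whatever the pattern. Calls at 1 site on different reads agreed in 70.1%. The difference between these, here the same-site gap, averaged 21.2 percentage points over 1590 windows (SD 12.4) and measures how far sites differ. The same-site gap of the open windows was 10.01 points (SD 8.07). Across animals, a female and a male call at the same site of an embedded window agreed in 69.4% of pairs, 19.8 points more often than at different sites.

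Calls at a pair of sites on 1 read agreed in 78.0% of pairs in the embedded windows. Calls at the same pair of sites taken from different reads of that liver agreed in 66.2%. The difference, here the same-read gap, averaged 11.8 points over 1589 windows (SD 9.60) and is what remains once sites are held constant. In the open windows these values were 67.8% and 54.1%, with a same-read gap of 13.6 points (SD 7.76). Each liver alone gave nearly the same, with same-read gaps of 11.6 and 12.0 points and same-site gaps of 21.1 and 21.3 points in the female and male. On average the same-site gap thus exceeded the same-read gap in the embedded windows, and the order was the opposite in the open windows. The same-read gap was the larger one in 34.5% of the embedded and 65.4% of the open windows. Its pairs of sites lie within 1 read, whereas the same-site gap also uses sites far apart in the window. Agreement on different reads, 66.2% against 54.1%, also left less room for a same-read gap in the embedded windows. With embedded windows of 1 kb the same-site gap was 16.0 points and the same-read gap 15.6. The order alone therefore does not show whether molecules differ less in the embedded windows.

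The same-read gap fell slowly with distance in the embedded windows. It was 10.5 points between sites 2 to 10 bp apart, 9.21 points at 11 to 25 bp, 7.80 at 26 to 50 bp and 6.79 at 51 to 89 bp, over pooled pairs. For the open windows it fell from 18.7 points to 14.7, 9.72 and 6.68. In points, the gap thus started higher and fell more steeply in the open windows, and was similar in both sets at 51 to 89 bp. Agreement at the same sites on different reads fell from 75.5% to 70.6% in the embedded windows. It fell from 60.1% to 54.6% in the open windows. The embedded windows thus leave less room for a gap at every distance, so that points alone do not show whether the sets are alike.

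**Figure D4:**
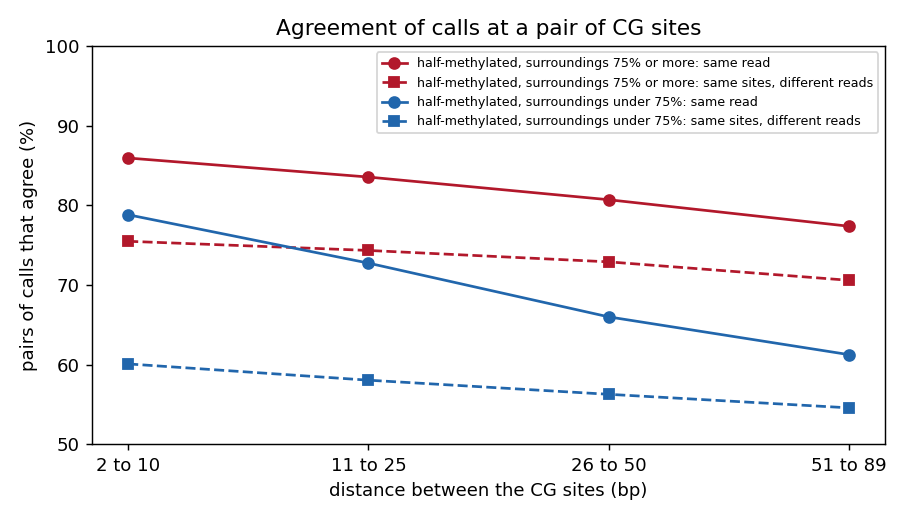
Share (%) of pairs of calls that agree against the distance (bp) between their CG sites, for calls of 1 read (circles, solid) and for calls at the same sites from different reads (squares, dashed), pooled over pairs. In embedded windows (red) the dashed line lies high, between 75.5% and 70.6%, while in open windows (blue) it lies between 60.1% and 54.6%.

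Reads that lie over each other were also compared directly. Among pairs of reads of 1 liver with at least 4 calls each and at least 3 sites in common, 24414 pairs in the embedded windows held no mixed read. In 14504 of them both reads were unmethylated at every call and in 7505 both were methylated. In 2405, or 9.85%, 1 read was fully methylated and the other fully unmethylated. In the open windows 26.1% of 77349 such pairs were opposed, and in the other windows nearby 3.69% of 474147. Pairs with a mixed read, left out of these shares, made up 58.4% of all pairs in the embedded windows. They made up 80.7% in the open windows and 54.4% in the other windows nearby. Of all pairs, 4.09%, 5.05% and 1.68% were opposed in these sets. The contrast with the open windows is thus wide only among pairs without a mixed read. At least 1 opposed pair was found in 38.6% of the 1463 embedded windows with such reads, in 40.8% of 13896 open windows and in 23.4% of 20992 other windows nearby. These shares rise with the number of pairs per window, which was not made equal. In all there were 58750, 400176 and 1040473 pairs in these sets. Deep stretches weigh most in the counts of pairs, since pairs rise with the square of the coverage.

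From these gaps the ends of a continuous spread were marked off, with limits that were chosen after the values were seen. Site-patterned windows, with a same-site gap of 20 points or more and a same-read gap under 10, numbered 601 of 1589, or 37.8%, against a background of 4.54% over all windows and 6.91% of the open windows. Two-state windows, with a same-read gap of 20 points or more and a same-site gap under 10, numbered 179, or 11.3%, against 5.73% over all windows and 15.6% of the open windows. The remaining 809 windows (50.9%) belonged to neither class. The share of two-state windows was therefore above the background of all levels but not above that of windows of the same level. Judged in each animal by itself over 1567 windows, 616 windows were site-patterned in the female and 629 in the male, of which 434 were so in both, 70.5% of the female and 69.0% of the male ones. Two-state windows were 192 in the female and 213 in the male, with 66 in both, 34.4% and 30.99% of each. Over these windows the same-site gap had an r of 0.65 between the animals and the same-read gap one of 0.46. Neither the overlaps nor these r values were worked out for the open windows or over all windows. Whether they are larger in the embedded windows is therefore not known.

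The site-patterned windows had a median of 49 CG sites and the two-state windows 37. The first and last 1 kb of a site-patterned window differed by a median of 49.4 points, and 6.93% of these windows bordered on a window under 20%. In two-state windows they differed by 14.7 points, a contrast that the definition of the classes largely fixes, and none of the 157 with covered neighbours bordered on one. Both neighbours were at 75% or more in 38.5% of the site-patterned and 32.5% of the two-state windows. Uniform reads over the same sites were opposed in 1.23% of 16359 pairs in the site-patterned windows and in 47.4% of 1718 pairs in the two-state windows, which their definition also fixes in large part. In the two-state windows 30.4% of the female reads were methylated at every call, 29.4% at none and 40.2% were mixed, and in the male 29.6%, 30.0% and 40.4%. With both livers added, 40.3% of their reads were mixed, close to the 41.5% of all embedded windows. The share was lower in the site-patterned windows, at 34.7%. The name two-state thus rests on the gaps and not on fewer mixed reads. The coverage of the two-state windows was ordinary, with a median of 5.04 calls per site.

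Among the 604 windows with at least 10 reads of 4 or more calls in each liver, the lowest share of mixed reads, 7.14%, was found in 2. The first was the window from 3306001 to 3308000 of NW_006890114.1, with 160 female and 302 male calls. In the female, 12 reads were methylated at every call, 8 at none and 2 were mixed, and in the male 15, 17 and 2. Its first 1 kb had a level of 50.5% and its second 10.3%, and of 39 sites with at least 5 calls 16 were under 20% and 18 at 80% or more. A row of unmethylated sites lay near its middle in both animals. The second, from 1338001 to 1340000 of NW_006890200.1, was at 93.7% in its first 1 kb and at 0.595% in its second. In the female 5 reads were methylated at every call, 5 at none and 2 were mixed, and in the male 5, 11 and 0. The window before it had a level of 96.2% and the window after it 47.1%. Its same-site gap was 49.7 points and its same-read gap 0.641 points, with 54.02% of its calls within 200 bp.

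The next lowest share among the 604 windows, 7.41%, came from a two-state window. From 2198001 to 2200000 of NW_006890147.1, 5 female reads were methylated at every call, 6 at none and 1 was mixed, and in the male 8, 6 and 1. Its same-read gap was 34.8 points and its same-site gap 6.89 points. Calls of 1 read were thus more alike than calls at the same sites on different reads. Its first 1 kb was at 43.6% and its second at 84.6%, next to windows of 79.8% and 66.8%. Not all uniform reads of both kinds need therefore lie over the same sites.

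Among the two-state windows with at least 10 reads in each liver, the 3 with the most reads of both uniform kinds in each animal were singled out after the values were seen. From 262001 to 264000 of NW_006890160.1, the female had 7 reads methylated at every call, 8 at none and 7 mixed, and the male 10, 8 and 8. From 416001 to 418000 of NW_006890177.1 the female had 7, 7 and 6 and the male 10, 6 and 14. From 328001 to 330000 of NW_006890119.1 the female had 7, 5 and 3 and the male 7, 8 and 7. In these windows the same-read gaps were 29.8, 30.0 and 32.6 points and the same-site gaps 8.46, 2.20 and 6.999. The neighbours of the second of them were at 25.3% and 63.0%, and those of the other ones between 56.1% and 73.1%. The calls carry no mark of the parental copy or the cell type a read came from, and these cannot be told apart here.

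The highest share of mixed reads among the same 604 windows was 88%, from 1240001 to 1242000 of NW_006890154.1. In the female 8 of 11 reads were mixed and 3 were methylated at every call, and in the male all 14 were mixed. From 2810001 to 2812000 of NW_006890071.1, 14 of 16 female and 13 of 15 male reads were mixed, or 87.1% together. In that window 73.8% of the calls lay within 200 bp, and it lay between windows of 87.6% and 85.3%. From 62001 to 64000 of NW_006890275.1, 15 of 17 female and 15 of 18 male reads were mixed, or 85.7%. The same-site gaps of these windows were 20.6, 9.73 and 20.2 points and their same-read gaps -0.349, 14.2 and 4.02 points.

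**Figure D5:**
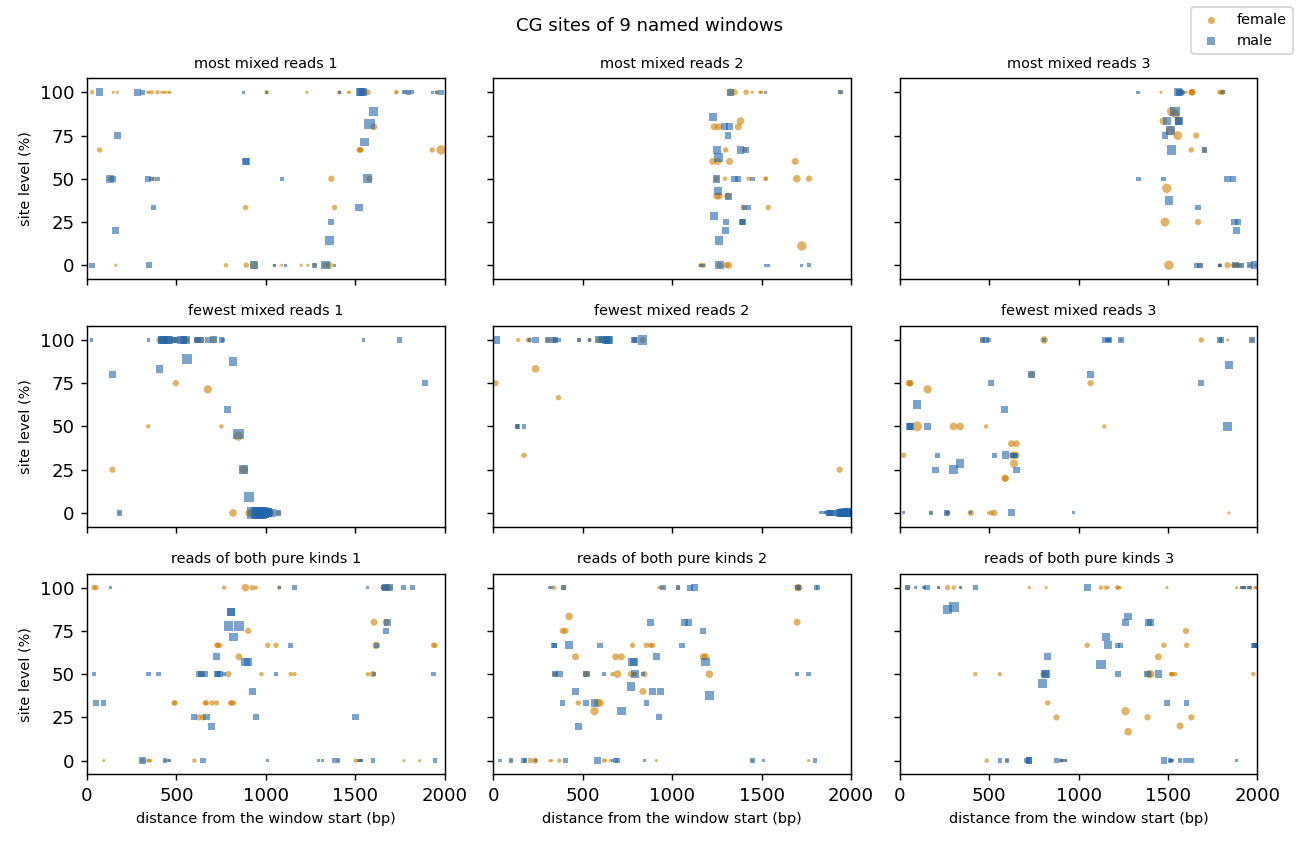
Methylation level (%) of each called CG site against its distance (bp) from the start of the window, for the 9 named windows, with circles for the female and squares for the male liver and the marker area growing with the number of calls. In the fewest-mixed windows 1 and 2 a dense row of unmethylated sites follows a row of mostly high sites in both animals. In the windows with reads of both uniform kinds, most sites with at least 5 calls lie between 20% and 80%, beside rows of low or high sites.

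Of the 5 windows with the most reads of at least 4 calls, 4 were site-patterned. From 298001 to 300000 of NW_006890143.1, 55 female and 94 male reads were found, of which 26 and 39 were methylated at every call, 16 and 26 at none, and 13 and 29 mixed. The level of its first 1 kb was 92.2% and that of its second 22.8%. From 158001 to 160000 of NW_006890329.1 the first and last 1 kb were at 90.6% and 32.5%, and an unmethylated stretch spanned 457 bp between neighbouring windows of 95.045% and 95.8%. From 74001 to 76000 of NW_006890371.1 the window before was at 3.34% and the window after at 92.0%. From 1154001 to 1156000 of NW_006890160.1, 31 of 56 female and 35 of 55 male reads were mixed, with a same-site gap of 23.7 points and a same-read gap of 12.8.

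One of these windows shows how uneven coverage bears on the level. From 10122001 to 10124000 of NW_006890063.1, between windows of 93.3% and 93.6%, the level by calls was 46.3% (female) and 53.4% (male). Of its 66 sites with at least 5 calls, however, 55 were at 80% or more and 8 under 20%, and the mean over its sites was 77.1% and 85.1%. In this window 43.5% of the calls lay within 200 bp. Over all embedded windows, 43 (2.70%) had at least 50% of their calls within 200 bp, against a background of 3.27% over all windows. When the level was taken as the mean over sites in place of the share of calls, 980 of the 1590 windows (61.6%) lay at 40% to 60% in both livers, 476 were over 60% in a liver and 141 under 40% in one.

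The longest runs were 3 adjoining windows. From 2850001 to 2856000 of NW_006890139.1 the female level was 43.9% and the male level 55.4%, over 159 sites, and 78.9% of 76 reads were mixed. From 12001 to 18000 of NW_006890141.1 it was 46.1% and 49.6%, over 214 sites, and 29.5% of 122 reads were mixed. Of the runs of 2 windows, the first in the order of scaffolds, from 10982001 to 10986000 of NW_006890054.1, had 44.7% and 56.8%, and 53.3% of 30 reads were mixed.

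The arrangement also varied with the level of the surroundings. The 1007 embedded windows in 50 kb windows of 75% to under 80% had 42.4% mixed reads, the 457 at 80% to under 85% had 40.8%, and the 126 at 85% or more had 37.1%. Split windows made up 50.2%, 55.3% and 59.2% of them, and the same-site gap was 20.4, 22.2 and 23.9 points. The last group is small and no intervals were computed, so that this order was not tested. Which genes, promoters or repeats lie in the embedded windows was not analysed here, because no annotation or sequence of assembly 6.1.3 was used.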

How the data were processed

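Bisulfite-treated DNA was given its adaptors after conversion (PBAT), and the libraries were sequenced from a single end. According to the methods of the study and its processing notes, reads were trimmed with Trim Galore (0.4.0) and by a further 10 bp at the 5' end, aligned with Bismark (0.14.3) to scaffolds over 277 kb of assembly 6.1.3, deduplicated, and their calls extracted. The deposited files hold 1 line per CG cytosine and read, with the call, scaffold and position. The low-coverage reports (10 libraries) were not used here.

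Computations used Python 3.11.15, NumPy 2.4.6, SciPy 1.17.1 and Matplotlib 3.10.9. A read lists its calls in ascending or descending order by strand, which was used to join the 20676135 called positions into 13522999 CG sites. Windows took calls by position. Agreement of calls was computed per window, within a liver, and averaged over windows with at least 20 pairs. The measures were tested on simulated windows in which only sites, only whole reads or only single calls differed. Those windows had low and high sites placed at random and no mixture of these patterns. They check the computation and not its accuracy at the depth and patterns of these data. Intervals are 95% Wilson intervals, which take reads as independent and are too narrow where reads share sites. Windows to be named were those with the most reads, the highest and lowest shares of mixed reads, the longest runs and those at the limits. The rule, measures and lists were chosen with earlier results of these data known. Alternatives were other minimums, limits, window grids and levels, single livers and single strands.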

Additional observations from a re-analysis of the deposited data

How the results depend on the processing

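Alternatives were run for 5 quantities of the embedded windows (their number, the share of mixed reads, both gaps and the share of split windows). A number or a share cannot turn negative, so that only the gaps could change sign, and neither did. The comparisons with the open and other windows were not run under them. The number of embedded windows moved most, from 1590 to 662 at a minimum of 100 calls per liver, 402 at a level of 45% to 55%, 583 in 50 kb windows of 80% or more and 3302 with windows of 1 kb. It was 2334 at a minimum of 30 calls and 1516 with the windows moved by 1 kb, and 1881 when the 50 kb level was taken without the window itself. The share of mixed reads, 41.5%, ranged from 38.7% to 48.0%. It was 40.4% at 100 calls, 40.7% at a level of 45% to 55%, 39.97% in 50 kb windows of 80% or more, 42.1% in the female liver alone, 40.6% with the windows moved and 48.0% with windows of 1 kb. With reads of at least 3 calls, at least 5 calls and exactly 4 calls it was 38.7%, 43.0% and 39.3%. The same-read gap of 11.8 points was 12.9 at 30 calls, 10.005 at 100 calls, 11.4 in 50 kb windows of 80% or more, 12.8 for neighbouring sites only, 10.8 with the windows moved and 15.6 with windows of 1 kb. The same-site gap of 21.2 points was 19.4 (30 calls), 24.1 (100 calls), 22.4 (level of 45% to 55%), 22.5 (80% or more) and 21.4 (without the window itself) under the other limits, 20.8 for the first cytosine of each site only, 22.2 with the windows moved and 16.0 with windows of 1 kb. At 1 kb the same-site and same-read gaps were thus nearly equal. Split windows, 52.3%, were 61.6% at 100 calls, 59.3% at a level of 45% to 55%, 56.1% at 80% or more, 44.5% with sites of at least 8 calls, 55.6% with the windows moved and 39.5% with windows of 1 kb.

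With the level taken as the mean over sites, an alternative chosen after the data were seen, 1750 windows qualified, 980 of them in common with the 1590. They had 39.03% mixed reads, a same-read gap of 10.4 points, a same-site gap of 22.9 points and 50.4% split windows. Leaving out windows with at least 50% of their calls within 200 bp, also chosen afterwards, moved no value beyond its spread. No paired analysis was possible because only 1 deep library per sex holds positions. Depth limits single windows most: at a median of 5.04 calls per site over both livers, a site level moves in coarse steps, and the kind of a single window can be set by few reads.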
